A study of Mus musculus with 4 samples.

Results

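Csf1, Prss23 and Pmp22 are 3 of the 24594 genes in a table of read counts from mouse embryonic stem cells (ESCs). They were selected on their measured values, a low level in wild-type (WT) cells and one of the largest differences toward the Snf2l knockout, so that their own difference between genotypes is given here as a description, with no test. Snf2l, listed as Smarca1, encodes the ISWI-type ATPase SNF2L, which moves nucleosomes. Poly(A) RNA was sequenced in 4 libraries, 2 from WT cells and 2 from Snf2l knockout cells, and the labels place them in a single batch. All cells were 129S6/SvEvTac ESCs grown on gelatin in medium with serum and LIF. The knockout was made with CRISPR-Cas9 and puromycin selection, and the methods describe 1 representative clone per genotype, so the effects of the clone and of the genotype cannot be told apart. The study describes its replicates as independent and biological, but neither the labels nor the methods say that the libraries of a genotype came from separate cultures, so p-values measure only the spread between these libraries.

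The genes code for proteins of different kinds. CSF1 (macrophage colony-stimulating factor) is a secreted cytokine that binds the receptor tyrosine kinase CSF1R, which also binds the cytokine IL34, and it is known for keeping macrophages and osteoclasts alive. PRSS23 is a secreted serine protease of the trypsin-like fold, whose closest relative is PRSS35. PMP22 is a membrane protein with 4 passes through the membrane, best known from the myelin of Schwann cells and from inherited neuropathies, and it was first described as a growth arrest gene of fibroblasts. Its nearest relatives are the epithelial membrane proteins EMP1, EMP2 and EMP3, and the claudins are more distant ones.

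The annotated start regions are shown first, since they place the genes and show the sequence from which transcription may begin. All positions are in GRCm38, the assembly that mm10 represents. Csf1 (Entrez gene 12977) lies on the minus strand of chromosome 3 (107741048 to 107760469), Prss23 (Entrez gene 76453) on the minus strand of chromosome 7 (89507783 to 89527187) and Pmp22 (Entrez gene 18858) on the plus strand of chromosome 11 (63128982 to 63159547). Each sequence below runs 5′ to 3′ on the strand of its gene, from 250 bases before to 50 bases after a start site annotated by RefSeq (GRCm38.p6), and covers the end of the promoter and the first transcribed bases. Capitals mark GC boxes (GGGCGG on either strand, so CCGCCC where the box lies on the opposite strand), the short element that Sp1-type factors are known to bind.
Csf1, chr3:107760420-107760719, minus strand: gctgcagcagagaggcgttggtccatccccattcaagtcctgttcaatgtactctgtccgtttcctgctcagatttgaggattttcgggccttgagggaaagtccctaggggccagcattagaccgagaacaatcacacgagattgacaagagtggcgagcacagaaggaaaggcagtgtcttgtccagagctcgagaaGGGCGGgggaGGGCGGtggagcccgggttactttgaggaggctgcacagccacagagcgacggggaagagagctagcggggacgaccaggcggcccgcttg
Prss23, chr7:89517537-89517836, minus strand: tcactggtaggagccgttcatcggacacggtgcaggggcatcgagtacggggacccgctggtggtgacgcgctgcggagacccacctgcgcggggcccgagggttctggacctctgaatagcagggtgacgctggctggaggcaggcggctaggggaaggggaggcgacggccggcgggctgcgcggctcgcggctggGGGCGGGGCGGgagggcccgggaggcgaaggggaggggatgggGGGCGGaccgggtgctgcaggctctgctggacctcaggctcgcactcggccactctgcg
Pmp22, chr11:63131207-63131506, plus strand: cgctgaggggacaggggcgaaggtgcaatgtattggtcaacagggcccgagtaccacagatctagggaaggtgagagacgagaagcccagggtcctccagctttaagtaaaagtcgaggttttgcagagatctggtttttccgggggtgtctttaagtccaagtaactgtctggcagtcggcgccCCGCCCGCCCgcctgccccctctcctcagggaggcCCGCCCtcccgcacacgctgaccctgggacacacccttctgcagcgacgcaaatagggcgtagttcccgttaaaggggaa

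The window of each gene was rich in G and C. The GC content was 58.7% for Csf1, 73.7% for Prss23 and 60% for Pmp22, against a median of 52.7% over 32851 RefSeq windows of 300 bases from 27025 genes. The ratio of observed to expected CpG dinucleotides was 0.644, 0.824 and 0.667 in the same order, and the median over all windows was 0.384. Csf1 had GC boxes that began 51 and 41 bases before its start site. Prss23 had an overlapping pair that began 52 and 47 bases before the start and another that began 9 bases before it. Pmp22 had them on the opposite strand, an overlapping pair 65 and 61 bases and a single one 30 bases before the start. A GC box is common, being held by 35.7% of all windows.

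The other motifs that were searched, on both strands, were absent from the printed windows. The first was the TATA box (searched as TATAAA), which 13.6% of all windows hold. The AP-1 motif (searched as TGANTCA) is held by 7.81% of windows, the TEAD motif (searched as CATTCC) by 14.7%, the E-box (searched as CACGTG) by 7.15% and the CArG box of serum response factor by 1.63%. RefSeq gives Csf1 a single window, Prss23 7 windows and Pmp22 4 windows. Over all of these, the GC box was found in 1 window of Csf1, 4 of Prss23 and 2 of Pmp22. The AP-1 motif was found in 2 windows of Prss23 and the TEAD motif in 1 window of Pmp22, and the TATA box, the E-box and the CArG box were found in none. The windows of a gene overlap in part. A match is a match of letters, not a binding site, and the counts per gene cannot show which start was used: GENCODE lists 6 start positions for Csf1, 8 for Prss23 and 5 for Pmp22.

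The libraries were of similar depth, with between 13771642 and 15608803 counts, and scaling factors (TMM) between 0.989 and 1.01. Levels are in CPM, the count scaled to a common library size, and a single count was worth between 0.0637 and 0.0735 CPM. Smarca1, the targeted gene, was checked first and had 43.2 ± 3.33 CPM in WT but 2.19 ± 0.241 CPM in its knockout (SD, n = 2 each). Its log2 fold change of -4.30 had an SE of 0.159 and an adjusted p = 2.65e-10 (Benjamini-Hochberg, from edgeR's quasi-likelihood test, as for every adjusted p given for edgeR). Of 13840 genes that passed the filter on low counts, 1274 were called at an adjusted p under 0.05, which is 9.21%. Of all genes tested, 4% were called higher and 5.21% lower in the knockout, and at the study's threshold of an adjusted p under 0.01 and a change over 2-fold, 0.571% were higher. The lower calls numbered 721, and 204 when chromosomes 8 and Y were left out of the fit. The higher calls numbered 553, and 370 when these chromosomes were left out. The share of 9.21% belongs to the fit with all chromosomes. All 3 members passed the filter, Prss23 through its knockout libraries, where it is high, and Csf1 and Pmp22 also by their WT libraries alone. None lies on chromosome 8 or Y.

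Csf1, the cytokine, was covered by 13 and 17 counts in WT cells, against 113 and 92 in knockout cells. Scaled to depth, it stood at 0.955 and 1.11 CPM in WT and at 7.2 and 5.99 CPM in the knockout. Both knockout libraries lay far above both WT libraries, and the libraries of a genotype differed by a ratio of 1.16 in WT and 1.2 in the knockout, whereas the 4 pairs of a knockout and a WT library gave ratios from 5.4 to 7.54. The mean was 1.03 ± 0.109 CPM for WT and 6.59 ± 0.86 CPM for knockout libraries (SD, n = 2 each), and the fitted log2 fold change was 2.66 (SE 0.248), or 6.32-fold. With both libraries of a genotype summed, 30 counts in WT have an exact Poisson 95% interval of 20.2 to 42.8, and 205 counts in the knockout one of 178 to 235. These intervals cover counting error only and leave out the variation between libraries. No removal of PCR copies is described, and copies counted as separate reads would make the intervals too narrow. A long noncoding RNA gene of RefSeq, Gm40121, overlaps the whole span of Csf1 (19422 bp). Where counting ignored strand, its reads would have been counted with those of Csf1, and whether strand was used is not given in the sources used here.

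Prss23, the secreted protease, was the lowest of the 3 in counts, with 9 and 10 in WT cells against 73 and 66 in knockout cells. These are 0.661 and 0.652 CPM in WT and 4.65 and 4.29 CPM in the knockout. The groups did not overlap, and the library ratios within a genotype, 1.01 and 1.08, were small beside the ratios of 6.5 to 7.13 between genotypes. For the members this separation goes with how they were chosen. With 2 libraries per genotype, separation alone says little, as Sox2, which was not called, had it at a log2 fold change of -0.04. Here and below, the share of all genes tested with such separation is not given. The mean went from 0.657 ± 0.00616 CPM to 4.47 ± 0.253 CPM (SD, n = 2 each), with a log2 fold change of 2.75 (SE 0.285), or 6.74-fold. The SD in WT understates the error, as the sum of 19 counts has a 95% interval of 11.4 to 29.7 (exact Poisson). In the knockout the sum of 139 counts has an interval of 117 to 164. GENCODE annotates an antisense gene, Prss23os, over part of the locus, and without strand its reads would be joined with those of Prss23.

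Pmp22, the membrane protein, was covered by 17 and 19 counts in WT libraries, against 116 and 102 in knockout libraries. It measured 1.25 and 1.24 CPM in WT and 7.39 and 6.64 CPM in the knockout, again with no overlap of the groups. The libraries of a genotype differed by ratios of 1.01 and 1.11, and the pairs across genotypes by ratios of 5.31 to 5.96. The mean was 1.24 ± 0.00652 CPM for WT and 7.02 ± 0.535 CPM for knockout libraries (SD, n = 2 each), with a log2 fold change of 2.49 (SE 0.228), or 5.61-fold. The summed counts were 36 in WT (exact Poisson 95% interval 25.2 to 49.8) and 218 in the knockout (190 to 249). Of the 3 genes, Pmp22 had the smallest fold change and the highest level, and the 3 log2 fold changes, from 2.49 to 2.75, lay closer together than the SE of Prss23. In bulk RNA, more cells that express a gene and more RNA per cell cannot be told apart.

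**Figure D1:**
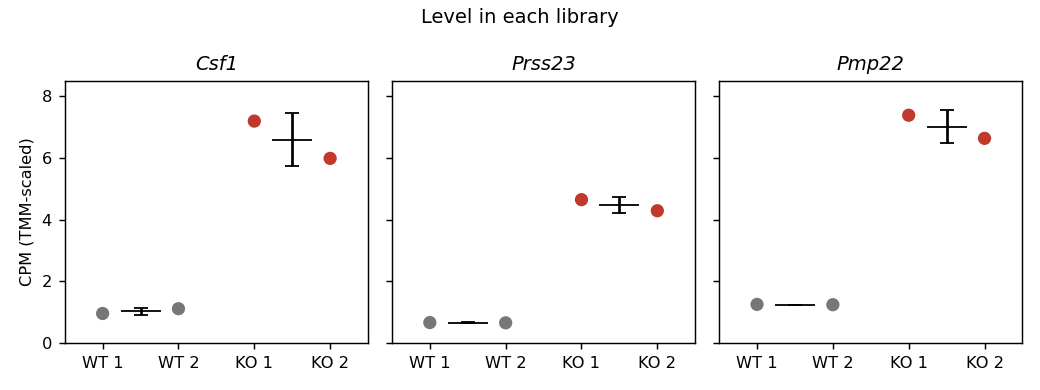
CPM (linear axis from 0) of Csf1, Prss23 and Pmp22 in the 4 libraries, with WT in grey and the knockout in red. Points are libraries, and the bars are the mean and SD over the 2 libraries of a genotype. All WT points lie between 0.652 and 1.25 CPM and all knockout points between 4.29 and 7.39 CPM.

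To compare levels between genes, CPM was divided by the gene length given in the table, 5281 bp for Csf1, 3767 bp for Prss23 and 2354 bp for Pmp22. Per kb, the WT level was 0.195 ± 0.0206 CPM for Csf1, 0.174 ± 0.00164 CPM for Prss23 and 0.529 ± 0.00277 CPM for Pmp22 (SD, n = 2 each). Pmp22 was thus the highest of the 3 in WT, and Csf1 and Prss23 were close to each other, with counting intervals that overlap once divided by length. In the knockout the levels per kb were 1.25 ± 0.163, 1.19 ± 0.0672 and 2.98 ± 0.227 CPM in the same order (SD, n = 2 each). Set among all genes tested, 4% had a lower level per kb than Csf1 in WT, 3.27% a lower level than Prss23 and 12.1% a lower level than Pmp22. In the knockout these shares were 22.5%, 21.9% and 36.4%, so that all 3 remained in the lower part of the tested genes. The multiples of difference therefore started from and arrived at low transcript levels.

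The values that chose the members can be set beside their neighbours in rank. Among the genes higher at the study's threshold with both knockout libraries above both WT libraries and a mean of at least 20 knockout counts, Tnc, which codes for the matrix protein tenascin C, was at rank 1 with 0 and 2 against 43 and 31 counts, at least 11.4-fold higher when WT is set to a floor of 3 counts per library. Prss23 was at rank 2, Csf1 at rank 3 and Pmp22 at rank 5. Acta2, smooth muscle actin, stood between Csf1 and Pmp22, with 120 and 142 against 793 and 808 counts and a log2 fold change of 2.51. Just outside came Col3a1, a fibrillar collagen chain, with 4 and 8 against 29 and 42 counts and a log2 fold change of 2.44. Fhl2, a LIM domain protein, followed with 5 and 9 against 39 and 42 counts and 2.41, and Ndufa4l2 with 5 and 8 against 31 and 31 counts and 2.13. Acta2 was the only one of these genes with over 100 counts in every library.

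**Figure D2:**
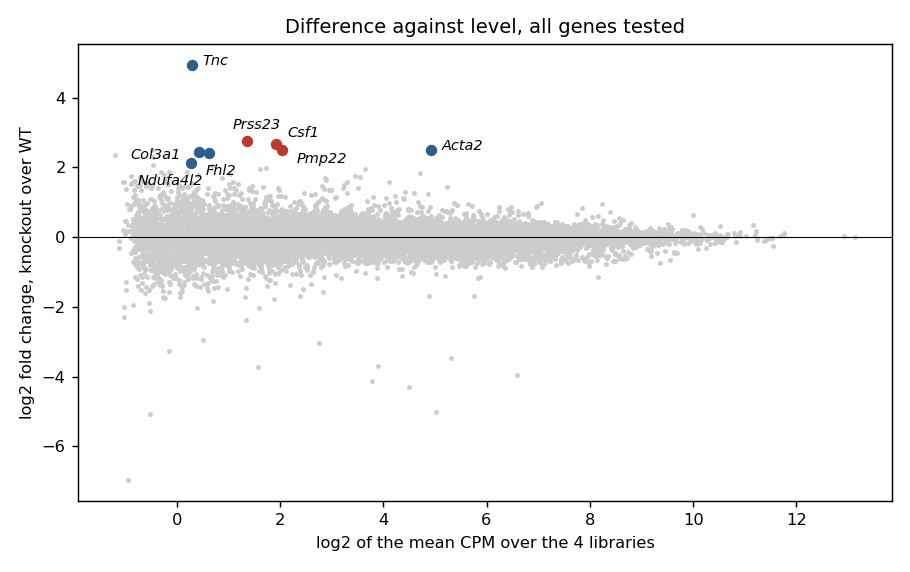
The log2 fold change (knockout over WT) against the log2 of the mean CPM over the 4 libraries for the 13840 genes tested, each a grey point. Csf1, Prss23 and Pmp22 are in red, and the other genes of the ranking are in blue. The fitted value of Tnc, at 0 and 2 WT counts, depends on the prior count and is no bound. The members lie at 2.49 to 2.75 on the vertical axis, above nearly all genes of their level.

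The genes whose pattern over the 4 libraries was most like that of a member were found by distance, after log2 CPM of each gene had been centred on its own mean. Nearest to Csf1 were Prss23 (distance 0.181), Pmp22 (0.222) and Acta2 (0.243). Nearest to Prss23 were Acta2 (0.143), Pmp22 (0.172) and Csf1 (0.181), and nearest to Pmp22 were Prss23 (0.172), Acta2 (0.2) and Csf1 (0.222). The members were thus among the nearest genes of each other, with Acta2 the only other gene to appear. With 2 libraries in each genotype, this likeness is mostly that of size and direction, which chose the members in the first place.

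Whether the difference extended along the chromosome was asked of the nearest tested genes, 5 on each side of a member, which had no part in the choice. Of these 30 genes, 1 was called at an adjusted p under 0.05 in edgeR (3.33%), beside 9.21% of all genes tested, and 9 had an unadjusted p under 0.05. DESeq2 called 0 of them, and leaving out 1 library gave 0 to 2. The count depended on the model, as the alternatives show, and nothing is read from its place beside the share of all genes. In this fit no neighbour of Prss23 or Pmp22 was called, and the log2 fold changes of neighbours lay between -1.61 and 0.34, whereas the members lay between 2.49 and 2.75. Over all tested genes within 500 kb of a member's start, 32 in number, 1 was called.

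Around Csf1, 9 of 10 neighbours had a negative log2 fold change, with a median of -0.36 and a range of -1.61 to 0.03. The nearest on the side of lower coordinates was Ahcyl1, a regulator of the IP3 receptor, with 1738 and 1880 against 1946 and 1734 counts and a log2 fold change of -0.08 (edgeR adjusted p = 0.68). On the other side it was Eps8l3, with 11 and 18 against 4 and 6 counts and a log2 fold change of -1.61 (edgeR adjusted p = 0.0508), which was lower in both knockout libraries but was not called. The gene called was 4933431E20Rik, which had 56 and 70 counts in WT against 41 and 37 in the knockout (log2 fold change -0.79, edgeR adjusted p = 0.0303). It overlaps Eps8l3 over 4051 bp and Gstm5 over 360 bp, so that the counts of these genes are not separate measurements where strand was not used. The call did not hold without WT replicate 1 (adjusted p = 0.0522), WT replicate 2 (0.17) or knockout replicate 2 (0.0789).

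The glutathione transferase genes of the Gstm cluster lie next to these. Gstm5 had 143 and 217 counts in WT against 126 and 143 in the knockout (log2 fold change -0.51, edgeR adjusted p = 0.0718), and Gstm3 had 23 and 28 against 14 and 12 counts (-1.07, 0.0578). Further on, Gstm7 was at -0.10 (0.888), Gstm6 at -0.75 (0.176), Gstm2 at -0.57 (0.0667), Gstm1 at -0.05 (0.842) and Gstm4 at 0.26 (0.273). Of these 7 genes, 6 had a negative log2 fold change and 0 were called. These enzymes conjugate glutathione to foreign compounds. Their genes are close copies of each other, and how reads were divided among them is uncertain. They were named after their values were seen.

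Around Prss23, 8 of 10 neighbours had a positive log2 fold change, with a median of 0.15, a range of -0.39 to 0.34 and a smallest edgeR adjusted p of 0.22. The nearest, Fzd4, a receptor for Wnt and norrin, had 59 and 71 counts in WT against 97 and 80 in the knockout (0.34, edgeR adjusted p = 0.302). On the other side, Hikeshi, a nuclear import carrier for heat shock proteins, had 887 and 1058 against 1141 and 1265 counts (0.21, edgeR adjusted p = 0.233). Neither was called. Around Pmp22, 3 of 10 were positive, with a median of -0.11, a range of -0.54 to 0.31 and a smallest edgeR adjusted p of 0.122. Its nearest neighbours were Tvp23b, with 508 and 517 against 546 and 577 counts (0.03, edgeR adjusted p = 0.918), and Hs3st3b1, a heparan sulfate sulfotransferase, with 134 and 154 against 140 and 145 counts (-0.12, edgeR adjusted p = 0.706). The median log2 fold change was -0.004 over 629 tested genes of chromosome 3, 0.056 over 1128 of chromosome 7 and -0.087 over 1163 of chromosome 11.

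**Figure D3:**
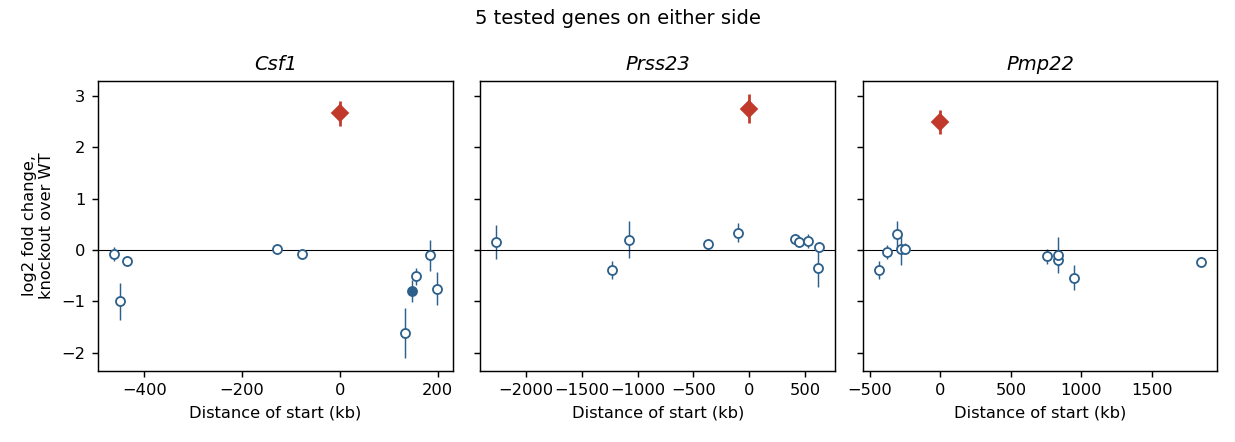
The log2 fold change (knockout over WT) of each member (red diamond) and of the 5 tested genes on either side (circles), against the distance of the gene's start from the member's start in kb, with higher coordinates to the right. Bars are the standard error of the fit, and a filled circle is a gene with an edgeR adjusted p under 0.05. The single filled circle, 4933431E20Rik at -0.79, lies beside Csf1, and the members stand alone above 2.

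Beside the ligand Csf1, its receptor and the receptor's other ligand were examined. Csf1r had 192 and 242 counts against 255 and 292. The log2 fold change was 0.24 (edgeR adjusted p = 0.337), and it was not called. Il34 had 20 and 25 counts in WT against 31 and 30 in the knockout, a log2 fold change of 0.34 (edgeR adjusted p = 0.539), and lies on chromosome 8. Per kb, the level of Il34 exceeded that of Csf1 in WT, where Csf1 was at 0.241 and 0.252 of Il34, and the order was turned in the knockout, where the ratios were 1.35 and 1.14. The receptor transcript exceeded Csf1 per kb in every library, by ratios of 13.5 and 13 in WT and of 2.06 and 2.9 in the knockout. These ratios turn mainly on Csf1 itself, whose difference was part of the choice. The related cytokines Csf2 and Csf3 were close to absent, with 0 counts of Csf2 in every library and at most 1 count of Csf3.

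Of the 34 genes in a list of the CSF1 receptor axis, which runs from the ligand IL34 and the sheddase ADAM17 to adaptors, kinases, phosphatases and STAT factors, 31 were tested. Of these, 3 were higher and 3 lower at an adjusted p under 0.05 (19.4%, beside 9.21% of all genes tested), and 25 were not called. The median log2 fold change was -0.05, where that of all genes tested was 2e-04, and 12 of 31 were positive.
The kinase Src rose from 263 and 267 counts to 412 and 428 (0.56, edgeR adjusted p = 0.00704). Pik3r1, a regulatory subunit of PI3-kinase, rose from 111 and 112 to 211 and 161 counts (0.63, 0.0236), and Inpp5d, the phosphatase SHIP1 that opposes it, rose from 2092 and 2231 to 3088 and 2751 counts (0.33, 0.0336).
The genes that fell were also signalling components. The catalytic subunit Pik3cd went from 313 and 337 to 242 and 228 counts (-0.57, edgeR adjusted p = 0.00711), the regulatory subunit Pik3r2 from 1020 and 1228 to 940 and 770 counts (-0.50, 0.00755) and the adaptor Gab1 from 8972 and 9458 to 7967 and 7653 counts (-0.34, 0.0147). Pik3r2 and Gab1 lie on chromosome 8, and with chromosomes 8 and Y left out 3 genes of the list were called, since the call of Inpp5d was also lost in that fit (adjusted p = 0.0697). With DESeq2 the call of Pik3r1 was lost (adjusted p = 0.133). Without WT replicate 2, Pik3cd was the single gene of the 6 still called (adjusted p of 0.0818 for Src, 0.105 for Pik3r1, 0.305 for Inpp5d, 0.056 for Pik3r2 and 0.074 for Gab1). Without WT replicate 1 the calls of Inpp5d (0.145) and Gab1 (0.278) were lost, and without knockout replicate 1 those of Inpp5d (0.0985) and Pik3r1 (0.0975).

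Among 30 cytokines, growth factors and receptors related to CSF1, 16 were tested, of which 7 were higher and 1 was lower at an adjusted p under 0.05. This is 50% of those tested, beside 9.21% of all genes, with the median log2 fold change at 0.42 and 14 of 16 positive. This list, like all lists here, was chosen with earlier results of these data known. The shares called in the lists are therefore descriptions and not independent results. Vegfa, a growth factor for blood vessels, rose from 361 and 424 counts to 741 and 670 (0.74, edgeR adjusted p = 4.92e-04). Tgfb2, a ligand of the TGF-beta family, had 21 and 15 counts in WT against 92 and 60 in the knockout (1.97, edgeR adjusted p = 6.81e-04). The chemokine Cxcl12 had 9 and 16 against 44 and 43 counts (1.69, edgeR adjusted p = 0.00265), and Pdgfa, a ligand of platelet-derived growth factor receptors, 352 and 417 against 612 and 611 (0.57, edgeR adjusted p = 0.00293).
In each of these 4 genes both knockout libraries lay above both WT libraries. The other 3 genes that rose, Pdgfc (0.47), Kit (0.42) and Pdgfb (0.71), fell outside the rule for naming and were named after their values were seen. Kitl, the ligand of the receptor Kit, went from 69 and 86 counts to 52 and 52 (-0.67, edgeR adjusted p = 0.0403), a call that was lost when any 1 library was left out (adjusted p from 0.0604 to 0.216). Without WT replicate 2, 4 genes of the list were called. Tgfb2 and Cxcl12 were thus the members of this list nearest to Csf1 in size of change and, like it, had few counts in WT.

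Beside the protease Prss23, its closest relative did not share the difference. Prss35 had 62 and 89 counts in WT against 73 and 62 in the knockout, a log2 fold change of -0.26 (edgeR adjusted p = 0.491), with overlapping groups. Per kb, Prss35 exceeded Prss23 by ratios of 7.53 and 9.73 in WT and of 1.09 and 1.03 in the knockout. These ratios turn mainly on Prss23 itself, whose difference was part of the choice. Of 34 serine proteases, their receptor and inhibitors, 22 were tested, of which 4 were higher and 0 lower at an adjusted p under 0.05 (18.2%, beside 9.21% of all genes tested), with 5 at an unadjusted p under 0.05, the median log2 fold change at 0.16 and 16 of 22 positive.

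Of the genes that rose, 3 are described here, of which Serpinb9 passed the filter only with its knockout libraries, where it is high. The secreted protease Htra1 had 215 and 265 counts in WT against 401 and 477 in the knockout (0.77, edgeR adjusted p = 0.00145). Spint1, an inhibitor of membrane-bound serine proteases, had 490 and 569 against 945 and 869 counts (0.68, edgeR adjusted p = 6.43e-04). Both genes had both knockout libraries above both WT libraries. Serpinb9, an inhibitor of granzyme B, had 10 and 6 against 21 and 25 counts (1.41, edgeR adjusted p = 0.0402), and its call was lost without WT replicate 2 (adjusted p = 0.328) or without knockout replicate 2 (0.16).

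Beside Pmp22, the closest relatives differed among themselves. Emp1 had 322 and 348 counts in WT against 480 and 450 in the knockout (0.37, edgeR adjusted p = 0.0501), which just missed the threshold and passed it under RLE scaling (0.0494), upper-quartile scaling (0.0348) and library-size scaling (0.0394). Emp2 had 13 and 8 against 31 and 22 counts (1.22, edgeR adjusted p = 0.0593), and Emp3 had 34 and 43 against 33 and 41 counts (-0.16, edgeR adjusted p = 0.771). The groups of Emp1 and Emp2 did not overlap, and those of Emp3 did. Emp1 did not pass with DESeq2 (adjusted p = 0.213). With chromosomes 8 and Y left out, the edgeR adjusted p was 0.0905 for Emp1 and 0.0956 for Emp2. With the replicate block these were 5.18e-04 and 0.01. Leaving out 1 library gave log2 fold changes of 0.34 to 0.40 for Emp1 and 0.83 to 1.69 for Emp2. Emp2 passed the filter only with its knockout libraries, where it is high.
Per kb, Emp1 was the most abundant of the 4 genes in every library, at 13.2 and 12.8 times the level of Pmp22 in WT and 2.89 and 3.08 times in the knockout. Pmp22 was below Emp3 in WT (0.227 and 0.201 of its level) and above it in the knockout (1.6 and 1.13). Pmp22 made up 5.22% and 5.25% of the summed level of the 4 genes per kb in WT and 21.3% and 19.6% in the knockout. The ratios and this share turn mainly on Pmp22 itself, whose difference was part of the choice.

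**Figure D4:**
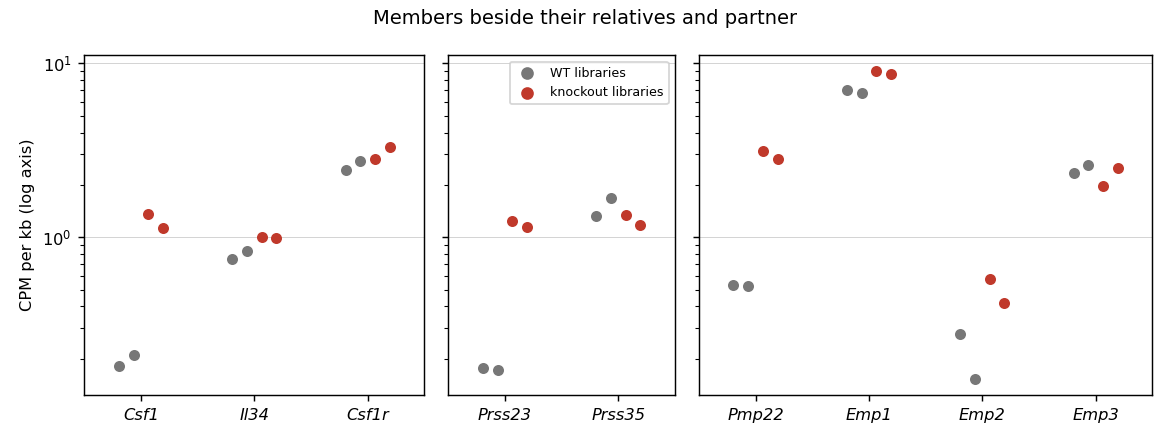
Level per kb of gene length (CPM per kb, log axis) of Csf1 with Il34 and Csf1r, of Prss23 with Prss35 and of Pmp22 with Emp1, Emp2 and Emp3, with 1 point per library, WT in grey and the knockout in red. The points of the members are far apart between genotypes, and Csf1 passes Il34 and Pmp22 passes Emp3 in the knockout. The members were chosen on this difference.

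Of 23 genes of the PMP22, EMP and claudin family other than Pmp22, 13 were tested, and edgeR called 0 of them (0%, beside 9.21% overall), with 5 at an unadjusted p under 0.05 and a median log2 fold change of 0.05. DESeq2 called 0 as well, but 1 was called under RLE, upper-quartile or library-size scaling or without WT replicate 1, and 2 without knockout replicate 2, so the 0 depends on the fit. Of 19 growth arrest genes, all were tested, and 3 were higher and 0 lower at an adjusted p under 0.05 (15.8%), with a median of 0.13 and 14 of 19 positive. Gadd45g, a stress sensor, had 53 and 63 counts in WT against 150 and 172 in the knockout (1.37, edgeR adjusted p = 2.06e-04). Axl, the receptor of the growth arrest protein GAS6, had 56 and 46 against 104 and 92 counts (0.84, edgeR adjusted p = 0.0154), and Gadd45a 806 and 990 against 1168 and 1281 (0.35, edgeR adjusted p = 0.0398). Without WT replicate 2, and with DESeq2, 1 gene of this list was called, and without knockout replicate 1 it was 5. Axl was not called without WT replicate 2 (adjusted p = 0.164), nor Gadd45a without WT replicate 1 (0.396), WT replicate 2 (0.105) or knockout replicate 2 (0.161). Over the 5 lists together, 100 genes were tested, of which 17 were higher and 4 lower (21%).

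**Figure D5:**
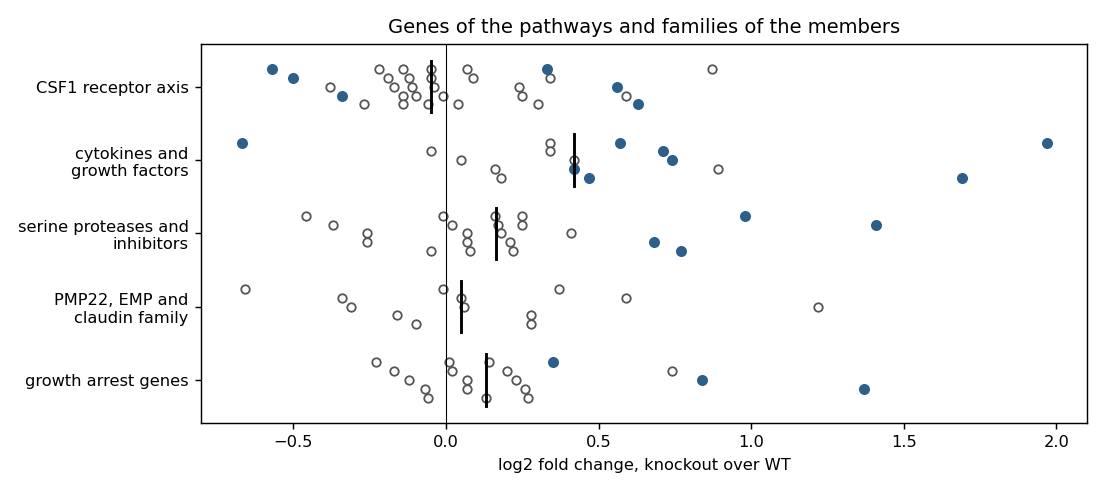
The log2 fold change (knockout over WT) of the tested genes of 5 lists, with 1 point per gene, filled where the edgeR adjusted p was under 0.05, and a black bar at the median of each list. Points are spread vertically within a list only to keep them apart. The cytokines and growth factors have the highest median, 0.42, and the members themselves are in none of the lists.

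Because Csf1, Prss23 and Pmp22 are better known from differentiated cells, markers of other cell types were measured beside them. The ESC markers were abundant, with Pou5f1 and Nanog at log2 fold changes of 0.06 and 0.00 (edgeR adjusted p = 0.727 and 0.998) and a summed level of 5060 and 5330 CPM in WT and 5520 and 5590 CPM in the knockout. Of 10 tested, Klf4, named after its values were seen, was higher (0.34) and Zfp42, on chromosome 8, was lower (-0.60), which is 20% beside 9.21% of all genes tested. Of the 10, 8 had a positive log2 fold change (median 0.19), and 6 had an unadjusted p under 0.05 in edgeR. The number called was 4 under upper-quartile scaling and 4 under library-size scaling. The call of Klf4 was lost with DESeq2, without WT replicate 2 and with chromosomes 8 and Y left out, where 0 of these markers were called. The macrophage markers Adgre1, Lyz2, Tyrobp and C1qa were at 0 counts in every library, Ptprc had at most 2 counts, and 0 of the 3 markers tested were called (0 at an unadjusted p under 0.05). The summed level of the list was 30.4 and 32 CPM in WT and 34.6 and 36.3 CPM in the knockout, nearly all of it from the 3 tested markers, Csf1r, Cd68 and Itgam.

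Of 12 fibroblast markers, 7 were tested and 2 rose (28.6%, beside 9.21% of all genes tested), and all 7 had a positive log2 fold change (median 0.89). Among them, Col3a1 and Postn (5 and 3 against 15 and 10 counts) passed the filter only through their knockout libraries, where they are high. The positive sign of these genes was thus not independent of the filter. Col1a1 had 77 and 69 counts in WT against 207 and 211 in the knockout (1.41, edgeR adjusted p = 9.18e-05), and Col3a1 (2.44, edgeR adjusted p = 0.00137) is given above. The summed level of the list was 16.9 and 14.5 CPM in WT and 30 and 31.4 CPM in the knockout, while Lum and Fap were at 0 counts in every library and Dcn had at most 2. Of 12 Schwann cell markers, 6 were tested and 2 rose (33.3%, beside 9.21% of all genes tested), Gjb1 (1.07) and Foxd3 (0.47), both named after their values were seen. The count was 0 with DESeq2 and 0 without WT replicate 1. S100b was at 0 in every library, and the summed level was between 83.1 and 91.8 CPM in WT and between 89 and 91.4 CPM in the knockout.

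Markers of primitive endoderm, an extraembryonic lineage that ESC cultures can form, had in the main fit the largest share of called genes among the 5 marker lists. Of 12, 11 were tested, all 11 had a positive log2 fold change (median 0.69) and 6 were called higher (54.5%, beside 9.21% of all genes tested). This order depended on the fit, as DESeq2 called 1 of these markers and 2 of the fibroblast list. With chromosomes 8 and Y left out, 3 of the primitive endoderm markers were called. Gata6 had 14 and 16 counts in WT against 31 and 45 in the knockout (1.23, edgeR adjusted p = 0.0236), and Sox17 had 9 and 12 against 21 and 22 (0.92, edgeR adjusted p = 0.139). The summed level was 488 and 464 CPM in WT and 593 and 542 CPM in the knockout. Most of it came from Sparc (mean 268 CPM in WT and 291 in the knockout), Lamb1 (118 and 148) and Lama1 (68.4 and 91.5). Gata6 stood at 1.04 and 2.45 CPM and Sox17 at 0.722 and 1.39 CPM in the same order. The call of Gata6 was lost without WT replicate 1 (adjusted p = 0.0576), WT replicate 2 (0.0639) or knockout replicate 2 (0.199). The number called was 1 without WT replicate 2, 3 without WT replicate 1 or knockout replicate 1, and 1 with DESeq2. The part of these marker genes in the levels of Csf1, Prss23 and Pmp22 was not tested.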

How the data were processed

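The authors deposited read counts per gene and library, with a gene length in bp (another unit) beside them. According to the methods, reads were aligned to mm10 with HISAT2 through QuasR and counted over UCSC Known Genes per Entrez gene, and the labels name bcl2fastq 2.17. The labels name a stranded kit and the methods an unstranded one. Of 24594 genes, 24570 (99.9%) were matched to RefSeq.

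Counts were fitted in edgeR 4.0.16 (R 4.3.3) with filterByExpr (minimum count 10), TMM scaling and the legacy quasi-likelihood test, two-sided, with genotype as the only term and Benjamini-Hochberg adjustment over 13840 genes. The scaling is an assumption. Alternatives were DESeq2 1.42.0, other scalings, filters and thresholds, the edgeR 4 fit, a replicate block, chromosomes 8 and Y left out, and each library left out. The procedure was tested on simulated data.

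The members and lists were chosen with earlier results of these data known. Named genes were the members, Smarca1, their nearest and called neighbours, close relatives, up to 4 called genes per list and direction by smallest p, defining markers, the 3 genes nearest in pattern (log2 CPM, prior count 2) and the genes beside the members in rank. Replicates differed beyond sampling noise (chi-square per degree of freedom 5.21 in WT and 7.42 in the knockout). The values of some genes of the lists are not reported here.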

Additional observations from a re-analysis of the deposited data

How the results depend on the processing

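The log2 fold changes of the members kept their direction under all alternatives that gave a value, from 2.52 to 2.79 for Csf1, 2.70 to 2.81 for Prss23 and 2.41 to 2.56 for Pmp22. Prss23 was not tested under a minimum of 10 counts in every library. Leaving out 1 library gave 2.52 to 2.79, 2.70 to 2.81 and 2.41 to 2.56, and without knockout replicate 1 the values were 2.52, 2.70 and 2.41. Without division by length, the WT levels of Csf1, Prss23 and Pmp22 were 1.03, 0.657 and 1.24 CPM.

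With the replicate number as a block, 1610 genes were higher and 1861 lower at an adjusted p under 0.05, against 553 and 721, and 124 were higher at the study's threshold, against 79. That is 25.1% of all genes tested. Under the block the calls were 10 of 30 neighbours (33.3%; 1 without it), which turns their share from below to above that of all genes, 36 pathway genes (21) and 23 markers (12), and in the PMP22, EMP and claudin family 5 of 13 (38.5%; 0 without it). Across genes, libraries with the same number deviated together with r = 0.196, and 2 pairs are too few to settle whether they are paired. DESeq2 called 286 higher and 464 lower, 48 higher at the study's threshold, 0 neighbours and 4 markers. At an adjusted p under 0.05 with a 2-fold change 123 genes were higher. With chromosomes 8 and Y left out, 370 genes were higher and 204 lower, and 7 markers were called. The neighbours called were 2 with at least 10 counts in every library and 2 with the edgeR 4 fit.

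With 1 library left out, the ranges were 318 to 817 genes higher, 511 to 1115 lower, 77 to 100 higher at the study's threshold, 0 to 2 neighbours, 10 to 24 pathway genes and 6 to 14 markers, the lowest of the last 3 without WT replicate 2. When a genotype is left with 1 library, that library is assumed to vary like the other genotype. Of 566 alternative values of 45 named genes, 515 kept their side of the threshold, 40 lost their call and 11 gained one. The cause was not tested. The sign of genes that were not called could change. Tvp23b went from 0.03 to -0.05 without WT replicate 2, and Emp3 from -0.16 to 0.01 without knockout replicate 1. With 9 to 19 counts per WT library the depth limits the precision of the members' WT levels, and 2 libraries of 1 clone per genotype limit what can be said of the genotype.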

Other observations

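Beside the higher Vegfa of the knockout, the receptors of VEGF were examined after their values had been seen. Kdr (VEGFR2) had 17 and 17 counts in WT and 63 and 43 in the knockout, a log2 fold change of 1.53 (edgeR adjusted p = 0.00343), and Flt1 (VEGFR1) had 11 and 19 against 51 and 42 counts (1.52, edgeR adjusted p = 0.00422). Both were higher in both knockout libraries. The coreceptor Nrp2 went from 1137 and 1132 counts to 591 and 487 (-1.18), while Nrp1, on chromosome 8, had 12 and 18 against 13 and 21 counts (0.08) and Pgf, another ligand of FLT1, 16 and 11 against 17 and 15 (0.14). These genes were picked with their values known, so no share of them is given.

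Further genes of extracellular signalling that were called, also named after their values were seen, were Bmp1, a procollagen protease, with 54 and 45 counts in WT and 177 and 169 in the knockout (1.70), the Wnt ligand Wnt7b, with 62 and 81 against 239 and 218 (1.57), and the Wnt receptor Ror1, with 15 and 16 against 58 and 42 (1.58). Like Csf1, Prss23 and Pmp22, Kdr, Flt1 and Ror1 had under 20 counts in each WT library.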
